A study of Macaca fascicularis and Mus musculus with 492 samples.

Results

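The genes described here are 6 regulators of transcription known from the trophectoderm and the placenta: CDX2, HAND1, TFAP2A, TFAP2C, GCM1 and VGLL1. They were chosen by symbol, and all 6 were found among the 28797 genes that hold a value in the cynomolgus monkey table. Their levels were read in 421 single cells, 390 from embryos of embryonic day 6 (E06) to E17 and 31 from embryonic stem cell (ESC) cultures. RNA of each cell was measured by SC3-seq, which amplifies the cDNA of a single cell and sequences the 3′ ends of transcripts, and the deposited values are RPM (reads of a gene per 1000000 reads). Embryos up to E09 were dissociated whole. Later embryos were dissected from the uterus, and the piece taken was the one with the epiblast, amnion, hypoblast and yolk sac endoderm, so the trophoblast cells of these days are those that came along with that piece. The ESC lines were CMK6 without feeders (9 cells), CMK6 on mouse feeder cells (14 cells) and CMK9 on mouse feeder cells (8 cells). The feeder cultures were grown with mouse LIF and bFGF, and ESCs were put into medium with a ROCK inhibitor when they were made single. The labels give no genetic change or drug treatment for any embryo.

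The trophectoderm is the outer epithelium of the blastocyst, and its descendants, the trophoblast, form the placenta. CDX2 is a homeobox factor of the early trophectoderm, and HAND1 is a basic helix-loop-helix factor of trophoblast and of mesoderm. TFAP2A and TFAP2C are AP-2 factors. GCM1 drives the fusion of trophoblast cells into the syncytiotrophoblast, and VGLL1 is a cofactor that binds the TEAD factors at the end of the Hippo pathway.

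The labels give the day but no lineage, so cells were grouped by clustering without the 6 genes, and clusters were named from markers. Trophectoderm-like cells of E06 to E09 numbered 73 (12 at E06, 19 at E07, 34 at E08 and 8 at E09). The 11 trophoblast samples, 9 of E14 and 2 of E16, were set by their place in the order of the record, not by a label, and the same 11 cells formed a cluster with 9 of 10 trophectoderm markers raised. All 10 trophectoderm markers had a mean level of at least 3 on the log2(RPM + 1) scale in both groups. These markers also named the clusters, so their level is no separate check. That mean was reached by 7 of them in epiblast-like cells of E07 to E09, and by 7 at E13 to E17. In the cluster of 21 early cells that holds all of E06, 8 of the 10 reached it. HSD3B1 and TEAD3 did not, each with 1 of the 21 cells at 10 RPM or above. POU5F1 and NANOG, which mark pluripotent cells, were at that level in 21 and 20 of them. In the other 52 early cells, the counts were 50 and 21. The summed RPM of the trophectoderm markers was 2787 or more in each of the 73 early cells and 1719 or more in each of the 11 late ones. The median number of recovered reads was 1989044 in the early cells (851665 to 4371222) and 2039742 in the late cells (1029651 to 2716675).

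The trophoblast cells also had reads of genes that mark another class. Of 9 markers of extraembryonic mesenchyme, 5 (COL3A1, LUM, DCN, COL1A1 and COL1A2) had a mean of at least 3 in them and 0 did in the early cells. The 9 summed to 16.9 to 2843 RPM in the 11 cells, with a median of 85.5 RPM and with 2843 and 2192 RPM in the 2 cells of E16, against 0 to 27.9 RPM in the early cells. The lowest sum among the 32 mesenchyme-like cells was 3489 RPM. The median sum was 185 RPM in epiblast-like cells of E13 to E17 and 499 RPM in ESCs. COL1A1 and COL1A2 had a mean of at least 3 in both of these. PTPRC, which marks white blood cells, was at 0 in all 84. The source of the reads of the mesenchyme markers, and their part in the results on the late cells, were not tested. The titles also carry a code beginning with MS, whose meaning the labels do not give. The early cells had the codes MS02, MS03, MS08 and MS68 and the late cells MS09 and MS13. Code and stage thus cannot be told apart. Among the early cells all 34 of E08 had MS02, and no other early day had it. All 8 of E09 and most of E06 and E07 had MS03, so code and day cannot be fully told apart either.

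CDX2 was present in most trophectoderm cells and nearly absent from the trophoblast. At E06 it ranged from 0 to 100.5 RPM with a median of 9.26 RPM (12 cells). The E07 cells ranged from 0 to 110 RPM with a median of 42.7 RPM (19 cells). The E08 cells ranged from 9.95 to 273 RPM with a median of 91 RPM (34 cells), and the E09 cells from 59.5 to 174 RPM with a median of 90.4 RPM (8 cells). The range thus closed from below: cells with 0 RPM were found at E06 and E07, and every cell of E08 and E09 had reads. In the trophoblast, 9 of 11 cells had 0 RPM and the other two had 0.47 RPM (E14) and 1.20 RPM (E16), so the levels did not overlap with those of E08 or E09. None of the 11 reached 10 RPM, which allows a share of up to 27.3%, against 84.9% of trophectoderm cells (62 of 73; 95% exact Clopper-Pearson interval 74.6% to 92.2%).

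HAND1 had an SD over the 73 trophectoderm cells of 3.27 on the log2(RPM + 1) scale, against 0.82 to 2.16 for the other 5 genes. The median rose over the days from 3.57 RPM at E06 (0.96 to 82 RPM) to 16.3 RPM at E07 (0.48 to 1840 RPM). It was 141 RPM at E08 (8.01 to 4562 RPM) and 852 RPM at E09 (48.9 to 3863 RPM). Neighbouring days overlapped throughout. In the 9 trophoblast cells of E14 HAND1 ranged from 0.88 to 107 RPM with a median of 3.23 RPM, and the 2 cells of E16 had 50.3 and 23.6 RPM. Of the 11 cells, 8 lay below the lowest cell of E09, and all 11 lay within the range of E07.

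TFAP2A, which is known from trophoblast and from surface ectoderm, was lower and more often absent in early cells. Its median was 2.79 RPM at E06 (0 to 44.5 RPM), 10.6 RPM at E07 (0 to 95.3 RPM), 21.9 RPM at E08 (0 to 230 RPM) and 30.8 RPM at E09 (3.91 to 125 RPM). In the trophoblast of E14 it ranged from 10.6 to 143 RPM with a median of 54.9 RPM, and the 2 cells of E16 had 61.6 and 905 RPM. All 11 trophoblast cells were at 10 RPM or above, against 64.4% of trophectoderm cells (47 of 73; 52.3% to 75.3%), though the ranges of single cells overlapped on every day.

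TFAP2C, known from trophoblast, germ cells and preimplantation pluripotency, had the smallest SD of the 6 over the 73 trophectoderm cells, 0.82 on the log2(RPM + 1) scale, and an SD of 1.63 over the 11 trophoblast cells. All 73 trophectoderm cells were at 41.6 RPM or above. The medians were 278 RPM at E06, 333 RPM at E07, 288 RPM at E08 and 332 RPM at E09. The trophoblast cells of E14 ranged from 10.5 to 349 RPM with a median of 137 RPM, and those of E16 had 31.7 and 648 RPM. Here too all 11 were above 10 RPM, but 4 of 11 were below 100 RPM, as against cells of E08 and E09 that all had 150.6 RPM or more.

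GCM1 was near 0 in most trophectoderm cells and present in most trophoblast cells. Its medians in the trophectoderm were 1.42, 0.97, 0.88 and 0.77 RPM from E06 to E09, and 6 of 73 cells reached 10 RPM (8.22%; 3.08% to 17.0%). The highest early value was 55.9 RPM, at E07. In the trophoblast of E14 it ranged from 0 to 483 RPM with a median of 50.2 RPM, and the 2 cells of E16 had 8.97 and 812 RPM. Of the 11 cells, 7 were at 10 RPM or above (63.6%; 30.8% to 89.1%). GCM1 was thus not raised in each trophoblast cell, and 3 of the 9 cells of E14 were below 10 RPM. E14 cells with 33.8 and 50.2 RPM and the E16 cell with 8.97 RPM also lay inside the range of the early cells.

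VGLL1 was found in both groups and was higher in the trophoblast. Its trophectoderm medians were 35.6 RPM at E06 (5.68 to 150.1 RPM), 24.1 RPM at E07 (0 to 140 RPM), 86.7 RPM at E08 (1.37 to 238 RPM) and 63.7 RPM at E09 (7.98 to 97.4 RPM). The trophoblast cells of E14 ranged from 313 to 982 RPM with a median of 540 RPM, and those of E16 had 193 and 323 RPM. Every E14 cell was above every early cell, and 1 E16 cell lay within the upper range of E08. The SD of VGLL1 over the 11 cells was 0.70 on the log2(RPM + 1) scale, against 1.63 to 2.90 for HAND1, TFAP2A, TFAP2C and GCM1. CDX2, at or near 0 in all of them, had an SD of 0.37.

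**Figure D1:**
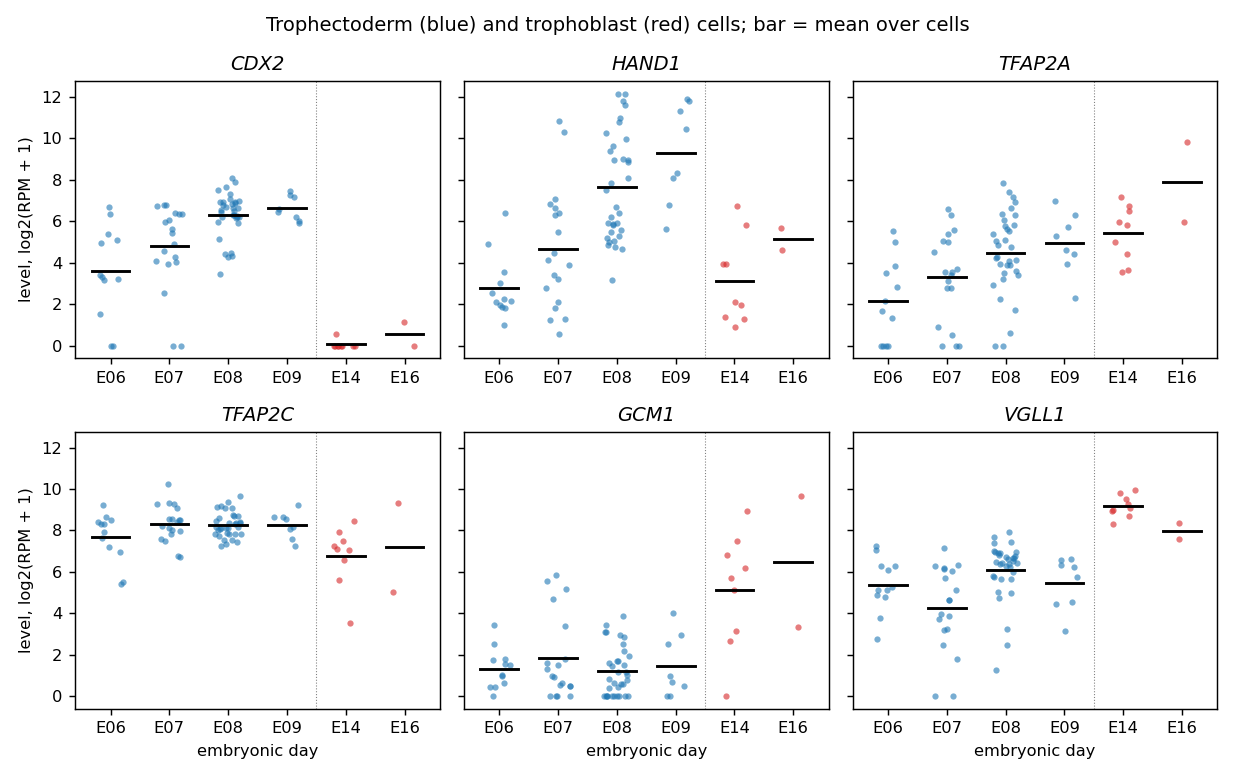
Level of each gene, as log2(RPM + 1), in single trophectoderm cells of E06 to E09 (blue, 73 cells) and trophoblast cells of E14 and E16 (red, 11 cells). Each point is a cell and the bar is the mean over cells. CDX2 points of E14 and E16 lie at or near 0, and VGLL1 points of E14 lie above all blue points.

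The 11 trophoblast cells were next read beside genes of placental function. CGA encodes the alpha subunit shared by chorionic gonadotropin and pituitary hormones, ERVFRD-1 encodes the fusogen syncytin-2, PGF is a placental growth factor and HSD3B1 makes progesterone. A single cell of E16 stood apart. It had 812 RPM of GCM1, 905 RPM of TFAP2A and 648 RPM of TFAP2C, the highest of the 11 for each. The same cell had 42311 RPM of CGA, the highest value of any gene in any of the 421 cells, and 766 RPM of ERVFRD-1. ERVFRD-1 was otherwise at 0 in 9 cells and at 32.3 RPM in 1 cell of E14. CGA was at 1000 RPM or above in 3 cells, all of them trophoblast, and its highest value elsewhere was 476 RPM. The other two cells had 1157 RPM each, with 176 RPM of GCM1 in the E14 cell and 8.97 RPM in the E16 cell. The cell of E14 with the most GCM1, 483 RPM, had 479 RPM of CGA and no ERVFRD-1. HAND1 was highest, at 107 RPM, in the E14 cell in which GCM1 was at 0. The E16 cell with the high CGA had 326 RPM of PGF and 2975 RPM of HSD3B1, the highest of the 11 for each. It also had 2192 RPM summed over the mesenchyme markers. SDC1, from the list of trophoblast differentiation, was at 136 RPM in it. SDC1 was also at 107 RPM in an E14 cell with 5.28 RPM of GCM1, and at 57.9 RPM in the E14 cell with 483 RPM of GCM1. Since E16 has only 2 cells, the E16 means of GCM1, TFAP2A and TFAP2C rest on the cell with the high CGA.

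**Figure D2:**
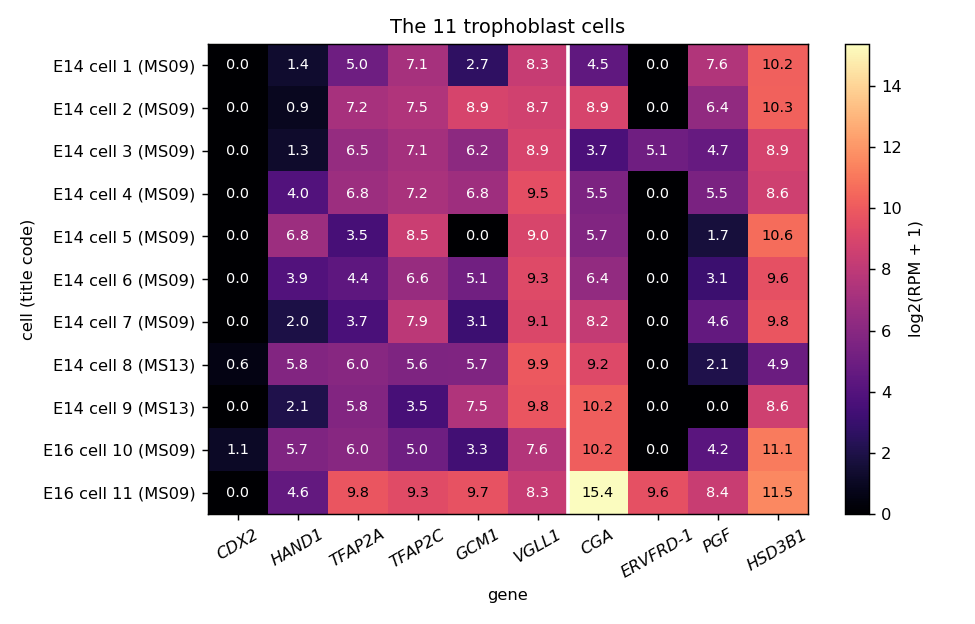
Levels, as log2(RPM + 1), of the 6 genes (left of the white line) and of 4 placental genes in each of the 11 trophoblast cells, with the title code in brackets. The last row, a cell of E16, has the highest GCM1, TFAP2A, TFAP2C, CGA and ERVFRD-1.

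Whether levels changed over E06 to E09 was tested as a slope per day. The mean of log2(RPM + 1) over the cells of a day was the unit, the fit was limma with Benjamini-Hochberg adjustment over all genes, and the threshold was an adjusted p of 0.05. Of 9414 genes tested, 110 passed (1.17%), 60 of them higher with time (0.637%) and 50 lower (0.531%). Of the 5 members tested, 2 passed. HAND1 rose by 2.25 per day (SE 0.14, adjusted p = 0.00055, limma), with day means of 2.79, 4.67, 7.64 and 9.28. CDX2 rose by 1.07 per day (SE 0.16, adjusted p = 0.039, limma), with day means of 3.58, 4.78, 6.32 and 6.63. Both had the 4 day means in order.

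TFAP2A had a slope of 0.95 per day (SE 0.20, adjusted p = 0.057, limma), with day means of 2.15, 3.30, 4.48 and 4.94, and did not pass. TFAP2C had a slope of 0.18 (SE 0.11, adjusted p = 0.46) and VGLL1 of 0.21 (SE 0.23, adjusted p = 0.71). GCM1 was below the filter on low values and was not tested. The CDX2 call rested on the first days: without E06 its slope was 0.92 (adjusted p = 0.35) and without E07 it was 1.07 (adjusted p = 0.065). HAND1 kept its call without any 1 day and lost it without the filter (adjusted p = 0.097), with the log of the mean RPM (0.061) and with equal cell numbers (0.11). TFAP2A passed without E08 (0.91 per day, adjusted p = 0.024) or without E09 (1.16, adjusted p = 0.017). With code MS03 alone, which leaves out E08, slopes were 2.07 for HAND1, 1.01 for CDX2 and 0.97 for TFAP2A. Each of these passed in limma (adjusted p = 0.00018, 0.011 and 0.039), while TFAP2C and VGLL1 did not. The number of genes called moved with the days in the fit, from 2 without E06 and 1 without E07 to 399 without E08 and 875 without E09.

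Within E07 the cells fell in both early trophectoderm-like clusters, and 16 of the 19 share the code MS03. These values describe clusters of the same cells and carry no test. In that code, the 9 cells of the cluster that also holds the E06 cells had a mean CDX2 level of 3.31 (SD 2.04) and a mean HAND1 level of 3.36 (SD 2.28). The 7 cells of the cluster that also holds the E08 and E09 cells had 5.88 (SD 0.88) and 6.76 (SD 3.22). GCM1 ran the other way, at 3.18 (SD 2.22) and 0.67 (SD 0.66), and 4 of the 6 early cells with 10 RPM or more of GCM1 were in the first cluster at E07. TFAP2A (3.21 and 3.93) and TFAP2C (8.49 and 7.97) differed by less than their SDs over cells. With the second cluster alone, E07 to E09, CDX2 had a slope of 0.26 per day (adjusted p = 1.00).

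The count of the 6 genes at 10 RPM or above in a cell followed the same days. Its median was 3 at E06, 4 at E07, 5 at E08 and 5 at E09. The trophoblast had a median of 4, with 3 to 5 per cell. CDX2 and HAND1 were both at 10 RPM or above in 51 of 73 trophectoderm cells, while 11 had only CDX2, 4 only HAND1 and 7 neither. In the trophoblast TFAP2A, TFAP2C and VGLL1 were together in 11 of 11 cells, and GCM1 joined them in 7.

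The trophoblast of E14 and E16 was compared with the trophectoderm of E06 to E09, again with days as units (2 against 4). CDX2 fell, GCM1 and VGLL1 rose, TFAP2C fell by a small amount, and HAND1 and TFAP2A did not pass. CDX2 fell by 5.01 on the log2 scale (SE 0.86, adjusted p = 0.0075, limma), from a mean of 5.33 to 0.31. VGLL1 rose by 3.27 (SE 0.55, adjusted p = 0.0069), from 5.29 to 8.57. GCM1 rose by 4.34 (SE 0.54, adjusted p = 0.0021), from 1.46 to 5.80. GCM1 passed the filter on low values only through the trophoblast days and CDX2 only through the trophectoderm days, so among genes tested both had to differ. Without the filter the adjusted p was 0.035 for CDX2 and 0.014 for GCM1.

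TFAP2C fell by 1.15 on the log2 scale (SE 0.29, adjusted p = 0.030, limma), from 8.13 to 6.98. TFAP2A had a difference of 2.94 (SE 0.92, adjusted p = 0.063) and HAND1 of -1.96 (SE 1.62, adjusted p = 0.44). Day means of the groups did not overlap for 5 of the 6 genes, all but HAND1, against 41.4% of all genes tested. CDX2 and GCM1 are among these 5 and passed the filter only through the group in which they were high, so the count is a description. Of 10174 genes, 1679 passed (16.5%), 722 higher (7.1%) and 957 lower (9.41%). The median difference over all genes was -0.29 and moved to -0.07 under quantile normalization, where 53.9% of the calls were higher against 43%. Relative to the median of all genes, CDX2 stood at -4.73, TFAP2C at -0.87, VGLL1 at 3.56 and GCM1 at 4.63.

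The CDX2 difference ran from -6.04 to -2.50 over the alternatives, and is given as a description because of the filter. VGLL1 lost its call when each unit had the same number of cells (3.84, adjusted p = 0.12) and held it in the other 17 alternatives. The TFAP2C call was lost in 9 of 18 alternatives. These were without E07 (adjusted p = 0.098), E08 (0.074), E09 (0.085) or E14 (0.050), with the MS09 trophoblast cells alone (-0.84, adjusted p = 0.065), without the filter (0.067), with quantile normalization (0.055), with equal cell numbers (0.071) and with RPM averaged before logs. The last left a TFAP2C difference of -0.53 (adjusted p = 0.34). TFAP2A passed with day and title code as the unit (3.05, adjusted p = 0.018) and without E14 (4.18, adjusted p = 0.013). The latter leaves the 2 cells of E16 as 1 unit, which is assumed to vary like the early days. GCM1 could not be tested without E14 or without E16. The count of called genes was 807 without E07, 929 without E09, 3394 without E14 and 984 without E16.

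**Figure D3:**
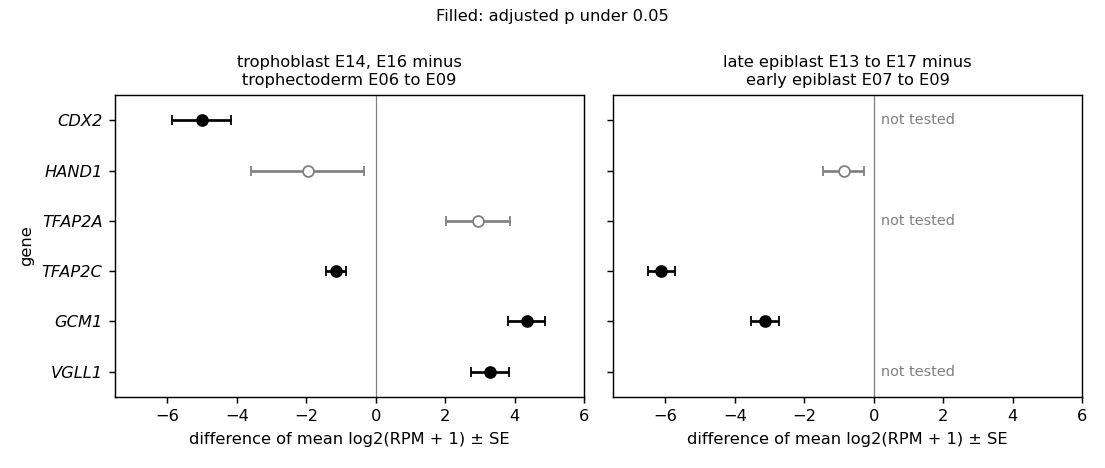
Difference in mean log2(RPM + 1) with its SE for each gene, between trophoblast of E14 and E16 and trophectoderm of E06 to E09 (left) and between late and early epiblast (right). Filled points have an adjusted p under 0.05, and genes below the filter on low values are marked as not tested.

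Other regulators of the trophectoderm were read from a list of 24, of which 20 were tested between trophoblast and trophectoderm. In this list 5 rose, 3 fell and 12 did not pass, with a median of 0.18 against -0.29 over all genes, of which 7.1% rose and 9.41% fell. PPARG, a nuclear receptor needed in the placenta, rose by 4.12 (SE 0.58, adjusted p = 0.0036, limma). NR2F2, an orphan nuclear receptor, rose by 5.78 (adjusted p = 0.0087), and ASCL2, a basic helix-loop-helix factor of trophoblast, rose by 4.28 (adjusted p = 0.012). KLF5 fell by 3.89 (adjusted p = 0.00053) and ESRRB, a nuclear receptor also known from naive pluripotency, fell by 5.78 (adjusted p = 0.0030). PPARG and KLF5 held in each alternative run. The ASCL2 mean was 0.79 in the trophectoderm, so it could not have passed the filter on the trophectoderm days alone. Its call was lost without the filter and with equal cell numbers (adjusted p of up to 0.19). The NR2F2 call was lost with the log of the mean RPM and with equal cell numbers (adjusted p of up to 0.062). ESRRB passed the filter only through the trophectoderm days, so it had to differ. ARID3A rose and MSX2 fell with calls that were lost in 8 and 11 of 18 alternatives, among them leaving out single days (adjusted p of up to 0.19 and 0.42).

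Of 21 listed genes of trophoblast differentiation 18 were in the table and 10 were tested. Here 5 rose, none fell and 5 did not pass, with a median of 3.79. CGA rose by 9.83 (SE 1.32, adjusted p = 0.0029), from a mean of 0.03 to 9.85. MMP2, a matrix protease that mesenchyme also makes, rose by 8.52 (adjusted p = 0.00012). The integrin subunit ITGA5 rose by 4.73 (adjusted p = 0.0057) and the imprinted gene PEG10 by 5.35 (adjusted p = 0.00065). Most of these were low in the trophectoderm and passed the filter through the late days, so their count is a description.

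Of 21 genes of the Hippo pathway 19 were tested, of which 2 rose, 3 fell and 14 did not pass, with a median of 0.26. These 5 of 19 are set against 16.5% of all genes tested. AMOTL1, a junction protein that binds YAP, rose by 4.43 (SE 0.68, adjusted p = 0.0047) and NF2, an upstream activator of the pathway, fell by 2.00 (SE 0.37, adjusted p = 0.010), and both held in each alternative run. TEAD4, the TEAD factor of the early trophectoderm, went from 5.49 to 3.69 (adjusted p = 0.030), a call lost in 10 of 18 alternatives, among them leaving out any day but E14. Of 10 relatives of the 6 genes only 2 were above the filter. CDX1, a caudal factor related to CDX2, fell by 3.83 (adjusted p = 0.015) and lost the call without E16 (adjusted p = 0.066); it too passed the filter only through the trophectoderm days.

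Over E06 to E09 the other trophectoderm regulators had 5 of 18 tested members rise and 1 fall, with a median slope of 0.47 per day against 0.01 over all genes, of which 0.637% rose and 0.531% fell. SP6, a zinc finger factor, rose by 1.71 per day, ID2, an inhibitor of helix-loop-helix factors, by 1.55 and GATA3 by 0.56, while ESRRB fell by 0.93 (adjusted p = 0.039 to 0.047, limma). AMOT, the Hippo regulator angiomotin, fell by 1.48 per day and was the only one of 16 Hippo genes to pass. Each of these 5 calls was lost without E07, and those of ID2, GATA3, ESRRB and AMOT also without E06, with adjusted p of up to 0.72 over the alternatives. Of the 2 tested relatives and the 6 tested differentiation genes 0 passed in limma (1 and 4 of them at an unadjusted p under 0.05).

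Outside the trophectoderm lineage the 6 genes had different distributions, given here as descriptions because the classes come from clusters of the same cells. VGLL1 was low outside the trophectoderm and trophoblast. Its day means were 4.24 to 6.09 in the trophectoderm and 7.97 or more in the trophoblast, and at most 1.76 in every other class with at least 2 cells on a day. It was at 0 in all 31 ESCs (share with a read of up to 9.68%) and in all 18 gastrulating-like cells of E17. Single cells of other classes reached higher values, up to 90.03 RPM in the mesenchyme-like cells and 81.3 RPM in an unnamed cluster of E06. The highest was 1 gastrulating-like cell of E14, with 113 RPM of VGLL1 and 23.7 RPM of GCM1.

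TFAP2C and GCM1 were shared with the early epiblast. TFAP2C day means there were 8.16, 7.56 and 7.59 at E07, E08 and E09, which overlapped with the 7.67 to 8.33 of the trophectoderm days, and all 34 cells were at 19.6 RPM or above. GCM1 had day means of 4.28, 3.30 and 4.12 in the early epiblast, above the 1.22 to 1.83 of the trophectoderm, and 61.8% of these epiblast-like cells were at 10 RPM or above (21 of 34; 43.6% to 77.8%). GCM1 was also at 10 RPM or above in 71% of 31 cells of E06 in an unnamed cluster led by DPRX, SPIC and NLRP7 (52% to 85.8%), with a mean of 4.35 (SD over cells 2.11). In the same 31 cells TFAP2C was at 10 RPM or above in 24 (77.4%; 58.9% to 90.4%), with a mean of 5.81 (SD 2.55). By mean GCM1 level the trophoblast came first, then this cluster, the early epiblast and the trophectoderm. The first 3 of these differed from each other by less than the SD over trophoblast cells (2.90). Below them, from the trophectoderm to the gastrulating-like cells, each class overlapped with the next.

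CDX2 was next highest outside the trophectoderm in a second unnamed cluster, in which SPP1, HAS2 and T were leading genes, with means of 5.18 at E13 (4 cells) and 3.98 at E14 (13 cells). In it 12 of 17 cells were at 10 RPM or above for CDX2 (70.6%; 44% to 89.7%), and 9 of those 12 also for T, the brachyury gene of the primitive streak. T was also at that level in 4 of the cells with less CDX2, and 1 cell had neither, so T did not mark the CDX2-positive cells. All 17 cells were at 10 RPM or above for POU5F1 and NANOG, and 10 of 17 for TFAP2C (58.8%; 32.9% to 81.6%). The TFAP2C means in them were 5.15 at E13 and 3.48 at E14. For CDX2 the hypoblast-like cells followed with 2.84, 3.10 and 4.37 at E07, E08 and E09, which overlapped with this cluster. CDX2 day means were 0.82 or less in the late epiblast and 0.41 or less in the ESC cultures.

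HAND1 was highest in extraembryonic mesenchyme, at 9.52 (SD 0.51, 16 cells) at E13 and 9.26 (SD 1.45, 14 cells) at E14, near the 9.28 (SD 2.41, 8 cells) of the E09 trophectoderm. The 2 mesenchyme-like cells of E16 had 2.11 and 315 RPM. In gastrulating-like cells HAND1 was split. At E16 it ranged from 0 to 5213 RPM with 6 of 10 cells at 10 RPM or above, and at E17 from 0 to 4622 RPM with 8 of 18 cells. At low level HAND1 had reads in each of the 34 early epiblast-like and 54 hypoblast-like cells (lowest 0.54 and 0.67 RPM), but in 3 of 31 ESCs. With at least 2 cells on a day, TFAP2A day means were at most 2.29 outside the trophectoderm lineage, other than 4.03 and 2.89 in the SPP1-led cluster. The 1 cell of E07 in the DPRX-led cluster had 25.1 RPM of TFAP2A.

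**Figure D4:**
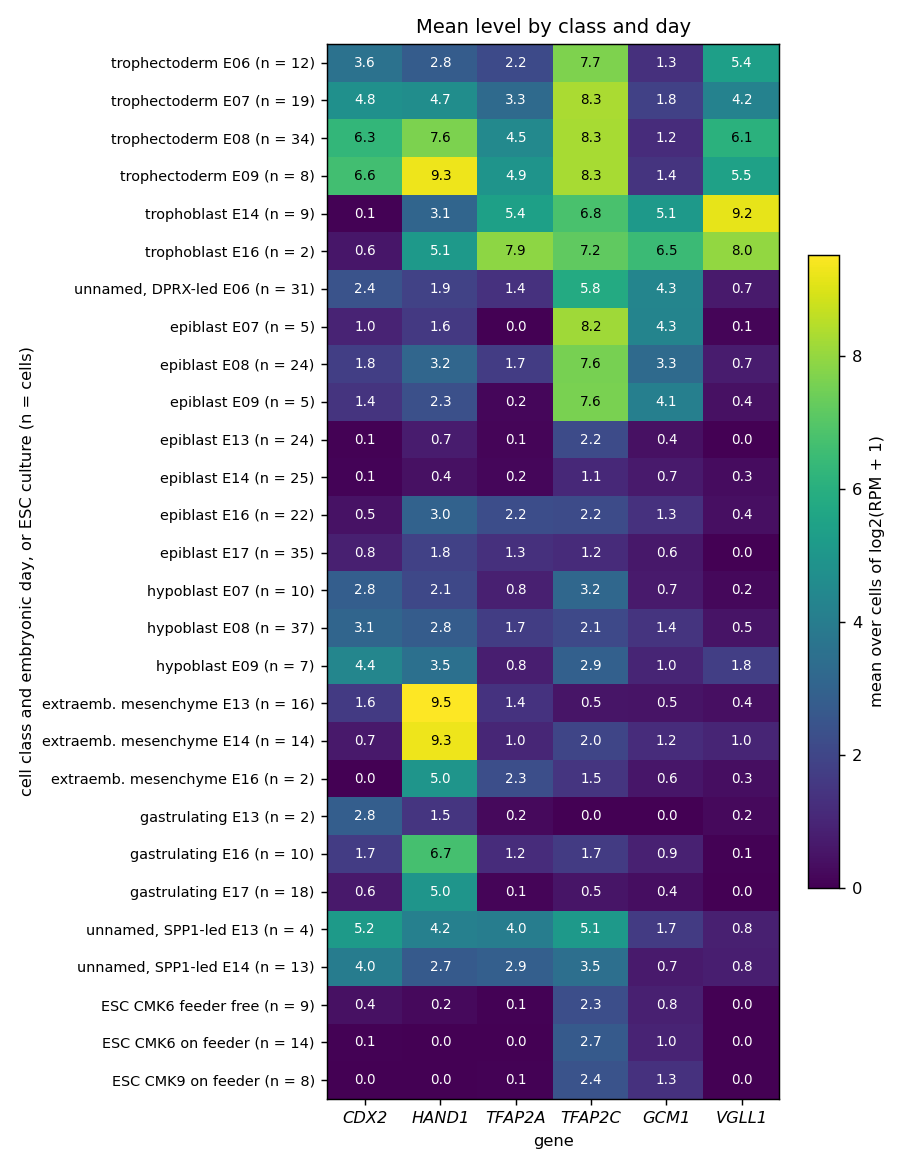
Mean over cells of log2(RPM + 1) for each gene (columns) in each cell class and day or ESC culture with at least 2 cells (rows). VGLL1 is bright in trophectoderm and trophoblast rows alone, while TFAP2C and GCM1 are also raised in the early epiblast and the DPRX-led cluster.

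**Figure D5:**
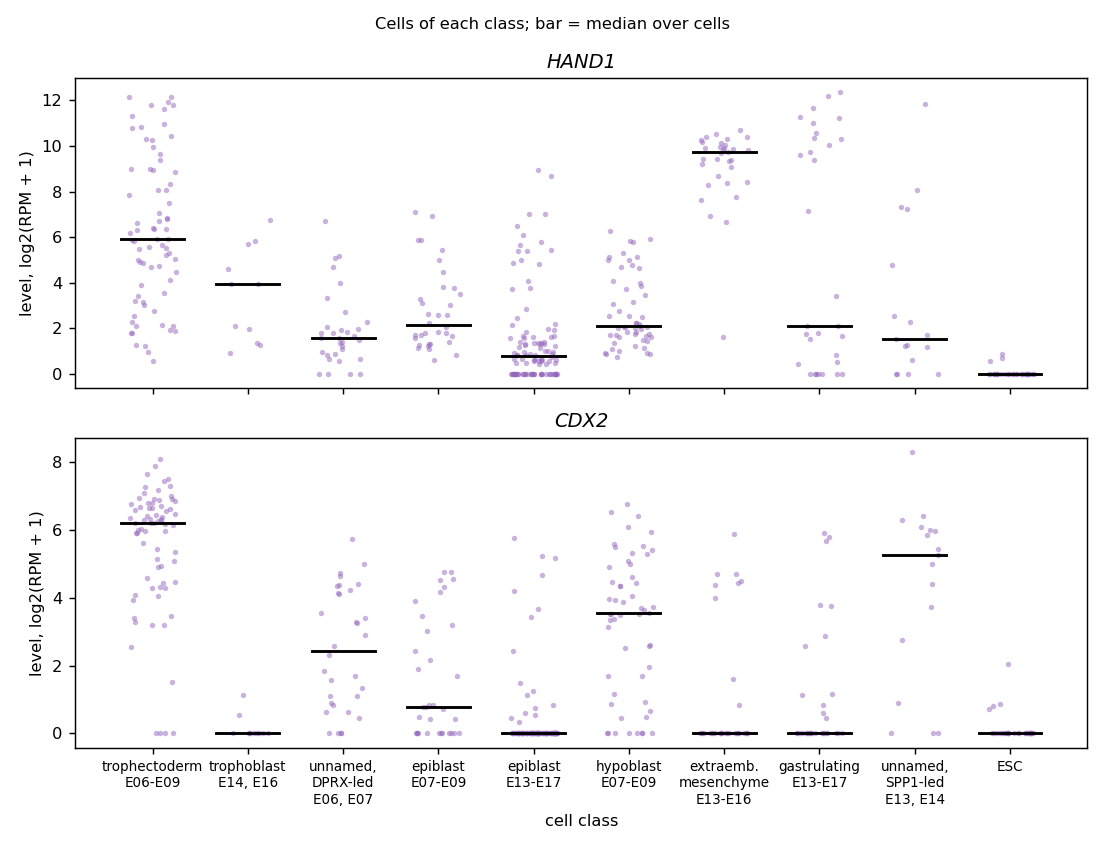
HAND1 and CDX2 levels, as log2(RPM + 1), in single cells of each class (points) with the median over cells (bar). HAND1 is high in nearly all mesenchyme-like cells and split in the gastrulating-like cells, and CDX2 is high in most trophectoderm cells and in the SPP1-led cluster.

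In the epiblast the members were compared between E13 to E17 and E07 to E09. TFAP2C fell by 6.12 (SE 0.38, adjusted p = 4.6e-07, limma), to day means of 2.18, 1.10, 2.16 and 1.18, and GCM1 fell by 3.13 (SE 0.40, adjusted p = 0.00010), to 1.35 or less. GCM1 passed the filter through the early days alone, so it had to differ. Day means of both did not overlap between the groups, as for 43.2% of all genes tested. HAND1 had a difference of -0.87 (SE 0.59, adjusted p = 0.27), and CDX2, TFAP2A and VGLL1 were too low to be tested. Of 10528 genes 3974 passed (37.7%), 1419 of them higher (13.5%) and 2555 lower (24.3%). The median over all genes was -0.26, and with quantile normalization it was -0.01 and 51.2% of the calls were higher against 35.7%. TFAP2C and GCM1 kept their calls in each of the 16 alternatives. The listed trophectoderm regulators had 2 of 14 tested rise and 4 fall, among them KLF5 by 4.96 (adjusted p = 5.3e-06) and GATA2 by 2.36 (adjusted p = 0.00092), and CDX1 fell by 4.10 (adjusted p = 4.5e-05). GATA2 and CDX1 passed the filter only through the early days, so they had to differ. The Hippo list had 2 of 18 rise and 2 fall, and the differentiation list 3 of 6 rise and 1 fall. Of these, TEAD3 and SDC1 rose from early means of 1.29 and 1.07, and CYP11A1 fell to a late mean of 0.75. Such means could not have passed the filter without the group in which the gene was high, so these counts are descriptions.

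HAND1 and TFAP2A appeared in some late epiblast-like cells. No cell of E13 or E14 had 10 RPM of HAND1 (49 cells), while 9 of 22 did at E16 (40.9%; 20.7% to 63.6%) and 8 of 35 at E17 (22.9%; 10.4% to 40.1%). TFAP2A reached 10 RPM in 1 of 24 cells at E13, 0 of 25 at E14, 7 of 22 at E16 and 7 of 35 at E17. Both genes were at that level in 4 cells of E16 and 2 of E17. All 57 cells of E16 and E17 were at 10 RPM or above for POU5F1 and NANOG, which mark pluripotent cells. HAND1-positive cells occurred under 2 codes at E16 (7 of 16 in MS08, 2 of 6 in MS09) and 3 at E17 (5 of 18, 2 of 8 and 1 of 8), so they were not from 1 code. Among the amnion markers, VTCN1 was at 10 RPM or above in 6 of the 9 HAND1-positive and 4 of the 13 other cells of E16, and in 4 of 8 and 12 of 27 at E17. GABRP was so in 4 of 9 and 1 of 13 at E16, and in 0 of 8 and 1 of 27 at E17. ISL1 was so in 1 of 9 and 2 of 13 at E16, and in 2 of 8 and 1 of 27 at E17, and WNT6 in 1 HAND1-positive cell of E16 alone among the 57. Of the remaining listed amnion markers, HEY1 was at 10 RPM or above in 7 and TNC in 1 of the 106 epiblast-like cells of E13 to E17. Of all 6 amnion markers 0 had a mean of at least 3 in these 106 cells. The part of amnion cells in the HAND1 and TFAP2A values was not tested.

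The ESC cultures had little of the 6 genes other than TFAP2C. TFAP2C culture means were 2.28 for CMK6 without feeders, 2.70 for CMK6 on feeders and 2.44 for CMK9 on feeders, and 14 of 31 cells reached 10 RPM (45.2%; 27.3% to 64%). Against the late epiblast the difference was 0.82 (SE 0.41, adjusted p = 0.22, limma), which did not pass, though the 3 culture means were all above the 4 late day means. Over all genes, 24.1% had groups that did not overlap in either direction. Of 10498 genes 902 passed (8.59%), 83% of them higher (7.13% of the genes tested, and 1.46% lower), or 54.9% with quantile normalization, which moved the median of all genes from 0.29 to -0.02. Of the 8 listed trophectoderm regulators tested 0 passed in limma (1 at an unadjusted p under 0.05). The other 5 members were too low for the test, and none of the 31 cells had 10 RPM of any of them, which allows a share of up to 9.68%. GCM1 had reads in 26 of the 31 ESCs, yet at 3.56 RPM at most.

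The genes most like each member were sought among 11441 genes by Pearson's r of the means over 24 units (classes by day and cultures), as a description. The units may share embryos, which no label names, and some share codes. They differ in depth, with median reads of 805681 in gastrulating-like cells of E17 and 2470546 in CMK9 ESCs. VGLL1 was most like FAM115C (r = 0.97), CEACAM1 (0.96) and CLDN3 (0.95), a tight junction claudin. TFAP2A was most like LOC102145907 (0.91), SP6 (0.91) and DLX5 (0.91), and VGLL1 was its nearest among the 6 (0.86). TFAP2C was most like NMI (0.92), PPT1 (0.90) and GDPGP1 (0.90), and its nearest of the 6 was GCM1 (0.66). CDX2 was most like APOC3 (0.90), C2H3orf52 (0.89) and AQP11 (0.88). HAND1 was most like TBX2 (0.88), ADAMTS6 (0.84) and EGFR (0.84), and GCM1 like LPAR3 (0.84), CCNE1 (0.80) and QDPR (0.79). Between GCM1 and HAND1 r was -0.14, and between GCM1 and CDX2 -0.08.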

How the data were processed

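The authors deposited 1 table of RPM per gene and monkey cell. The tools named are Cufflinks 2.2.0, TopHat 1.4.1 and cutadapt 1.3, per the submitters' processing notes. These notes name the mouse build mm10 for the monkey cells too, while per the file headers the genes refer to macFas5. No source used here gives how reads were assigned to genes. Of 29095 genes 298 hold no value, and 3296 of 14758 LOC names were given a symbol by gene ID from a RefSeq gene table of assembly T2T-MFA8v1.1, used for names only. The 71 mouse cells were not used. Reads were recovered as RPM over the most common step above 0.01 RPM. In each cell at least 99.71% of the values below 500 steps came within 0.1 of a whole number. A separate check did not accept the reads as whole for most cells, so read numbers and thinned shares are estimates and no count test was run. Cells had 166753 to 4491536 reads (median 1879413). Molecular identifiers are not given, so exact Clopper-Pearson intervals (95%) and the upper limits given for shares of 0 (3 cells divided by their number) hold for counting error alone.

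Embryo cells were clustered without the 6 members, using log2(RPM + 1) of 2000 variable genes (12 principal components, 10 neighbours, Leiden resolution 1; scanpy 1.11.5, igraph 0.11.9), which gave 12 clusters. A cluster was named X-like when over 50% of the detected markers of a class, and at least 3, were raised by at least 1 (log2) with a mean of at least 3, with no tie. Names may differ from those of the study. No doublet caller was run. No 2 cells correlated above 0.9477.

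No label names an embryo, so cells are not replicates. Units were class by day means, of at least 2 cells (5 for epiblast and ESC), and genes reaching a unit mean of 2 in 2 or more units went into limma 3.58.1 (lmFit, eBayes with trend) in R 4.3.3, two-sided, with Benjamini-Hochberg adjustment. These p-values measure the spread between days or cultures, which may be technical, and groups that come from clusters are not independent of the genes clustered. The 3 ESC cultures come from 2 lines. The fits were tested on simulated data. Changes of 2 on the log2 scale were recovered for 14% of changed genes in the trend, as a total over E06 to E09. The share was 18% for trophoblast against trophectoderm, 70% for the epiblast and 68% for the ESCs. Changes of 4 were recovered for 52%, 80%, 98% and 92%. Of unchanged genes 0.03% to 0.09% were called. A gene that did not pass may thus have changed. The members, gene lists, markers and rules were chosen with earlier results of these data known. Named genes were the 6 members, the 3 genes most like each, at most 4 passing members of each list in each direction, by smallest adjusted p. CGA, ERVFRD-1, PGF, HSD3B1 and SDC1 in the single trophoblast cells, and the amnion markers and T, were named after their values were seen. Alternatives were a pseudocount of 10, no filter, quantile normalization, the log of the mean RPM, resolution 1.5, clustering with all genes, equal cell numbers, title codes as units and leaving out each unit. The runs with 1 cluster or 1 title code alone were chosen after seeing the data.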

Additional observations from a re-analysis of the deposited data

Results flagged for a closer look

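A pair of values stood apart from the rest of their group among the 24 groups of 4 to 10 values examined, of which chance flags about 1 in 20. CDX2 in the trophoblast cells of E14 was at 0 in 8 of 9 cells and at 0.56 (log2(RPM + 1), 0.47 RPM) in the other, which is the level of 1 read. With 8 values tied at 0 any read in the other cell is flagged, so the rate of 1 in 20 does not hold for this group. TFAP2C in the trophectoderm days was lowest at E06, with a mean of 7.67 against a median of 8.27 over the other 3 days.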

How the results depend on the processing

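No paired analysis was possible because the labels number single cells and name no embryo shared between groups. The edgeR test on recovered reads was not run. For the trend over E06 to E09, where 110 genes passed, limma called 1 with a pseudocount of 10, 1 with quantile normalization, 3 with day and title code as the unit, 3 with the later early cluster alone and 296 with code MS03 alone. It called 0 without a filter (2963 at an unadjusted p under 0.05), 0 with the log of the mean RPM (1651) and 0 with the same number of cells (1168). Leaving out a day gave 1 to 875. For trophoblast against trophectoderm, 1679 became 362 with the same number of cells, 984 with units of at least 5 cells and 807 to 3394 leaving out a day. For the epiblast, 3974 became 2283 with the same number of cells and 3089 to 3938 leaving out a day. For ESCs against late epiblast, 902 became 113 without a filter, 437 with quantile normalization, 494 with the log of the mean RPM, 432 with the same number of cells and 212 to 900 leaving out a unit (212 without E14, 254 without CMK9 and 317 without CMK6 on feeders). The causes were not tested. The 2 other clusterings gave the same counts. CDX2 lost its trend call in 9 of 14 alternatives (adjusted p up to 1.00) and HAND1 in 3 (up to 0.11). The TFAP2C slope ranged from -0.0282 per day without E06, a reversed sign (adjusted p = 1.00), to 0.3026 without E09. Shares of trophectoderm cells with at least 1 read, after thinning to 1000000 reads (2 cells left out), were 95.8% for CDX2 and VGLL1, 100% for HAND1 and TFAP2C, 87.3% for TFAP2A and 64.8% for GCM1. The 2 cells of E16, and 11 late cells in all, limit what can be said of the trophoblast.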
